A study of Mus musculus with 39 samples.

Results

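The 10 genes described here encode transcription factors and co-regulators that set the state of the Schwann cell: Egr2, Pou3f1, Pou3f2, Sox10, Sox2, Nab1, Nab2, Yy1, Id2 and Egr1. They were taken by name from the 55573 genes counted in each library, and all 10 were among the 18442 genes that passed the filter on low counts. Bulk RNA-seq was made from the endoneurium of mouse sciatic nerve, the tissue left after the perineurium was stripped, distal to a nerve crush. All mice carried floxed alleles of Lepr, which encodes the leptin receptor. Lepr-ctrl mice (Lepr fl/fl) carried these alleles alone, and Lepr-cKO mice (Lepr fl/fl::Dhh-Cre) expressed Cre from the regulatory sequence of Dhh, a gene of the Schwann cell lineage. The injured nerve was the crushed one and the healthy nerve was the contralateral one of the same mouse, collected 2 or 4 weeks post crush (wpc) from separate mice. The mice were of both sexes and 2 to 4 months of age.

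The 39 libraries formed 8 groups. At 2 wpc there were 5 healthy and 5 injured Lepr-ctrl libraries and 6 healthy and 5 injured Lepr-cKO libraries, and at 4 wpc there were 5 healthy and 4 injured libraries of each genotype. Each mouse gave its own libraries, so replicates are separate animals, and 17 of the 22 mice gave both nerves. Totals ran from 10905806 to 45016322 counts, and the lowest was an injured Lepr-ctrl library at 4 wpc. Levels below are CPM, counts relative to the size of the library, scaled by its composition. Libraries are called by the names in their labels, where c or Snc marks the healthy and i or Sni the injured nerve of the numbered mouse. A gene passed the test where its adjusted p in edgeR's quasi-likelihood test, with Benjamini-Hochberg adjustment over the 18442 genes, was under 0.05.

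The endoneurium held the markers of Schwann cells in every group. All 9 genes of the Schwann cell list were detected in each of the 8 groups, and their summed level had a mean of 51117.8 CPM in healthy Lepr-ctrl nerves at 2 wpc. Lepr, the targeted gene, was between 5.79 and 14.7 CPM in all healthy libraries and between 20.8 and 121.0 CPM in all injured ones. It did not pass the test between genotypes, with log2 fold changes of Lepr-cKO over Lepr-ctrl of 0.39 (SE 0.29, adjusted p = 0.939) in injured nerves at 2 wpc and -0.54 (SE 0.33, adjusted p = 0.362) at 4 wpc. Whole-gene counts of a tissue with several cell types do not show whether the floxed exon was removed in Schwann cells.

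Some libraries stood apart. The share of counts from mitochondrially encoded genes was 1.92% to 4.25% in healthy libraries, and in injured ones it reached 33.0% in Lepr-ctrl SLRKO2wpc144i and 29.7% in Lepr-cKO SLRKO2wpc135i at 2 wpc. At 4 wpc the injured Lepr-cKO KO-169Sni had the lowest share of its group, 2.95%, against 9.84% to 20.2% in the other 3. The injured Lepr-cKO SLRKO2wpc126i at 2 wpc carried skeletal muscle transcripts, with 35543.9 CPM summed over 8 muscle genes, where no other library had more than 28.2 CPM. Injury calls of the 10 genes that rest on one of these libraries are given with and without it.

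As background, Schwann cells pass from an immature state to the promyelinating and then the myelinating state under a small set of transcription factors. Sox10 defines the lineage, Pou3f1 (Oct-6, SCIP) and Pou3f2 (Brn-2) act in the promyelinating cell, and together they lead to Egr2 (Krox-20), which switches on myelin and lipid synthesis genes. Nab1 and Nab2 bind Egr proteins as co-regulators, Yy1 takes part in the activation of Egr2, and Sox2 and Id2 hold back myelination and mark the immature cell. After injury, myelinating cells lose this programme and become repair cells, and they pass through it again when axons return.

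In the GRCm38 build Egr2 lies at chr10:67535475-67542188 (plus strand), Pou3f1 at chr4:124656807-124660655 (plus), Pou3f2 at chr4:22482780-22488366 (minus) and Sox10 at chr15:79154908-79165240 (minus). Sox2 lies at chr3:34650405-34652461 (plus) and Id2 at chr12:25093799-25097140 (minus). Nab1 lies at chr1:52457294-52500679 (minus), Nab2 at chr10:127660918-127668568 (minus) and Yy1 at chr12:108792973-108820148 (plus).

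The 10 genes differed widely in level. On the scale of CPM per kilobase of exon, the healthy Lepr-ctrl nerve at 2 wpc had Sox10 at 217.2 ± 41.4 (SD, n = 5) and Egr2 at 125.6 ± 17.3. Nab1 followed at 32.3 ± 2.14, then Egr1 at 23.9 ± 11.7, Yy1 at 17.0 ± 1.00, Nab2 at 15.8 ± 3.28, Pou3f1 at 11.8 ± 1.53 and Sox2 at 10.6 ± 0.985. Pou3f2 at 6.49 ± 0.975 and Id2 at 4.97 ± 1.82 were the lowest. Sox10 and Egr2 were thus far above the other members, while Egr1 with both its neighbours, Yy1 with Nab2, Pou3f1 with Sox2, and Pou3f2 with Id2 differed by no more than the larger SD of each pair. In the injured Lepr-ctrl nerve at 2 wpc the order was different below Sox10 (134.7 ± 49.2), with Id2 in the next place at 55.6 ± 10.4 and Egr2 at 41.8 ± 16.7.

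**Figure D1:**
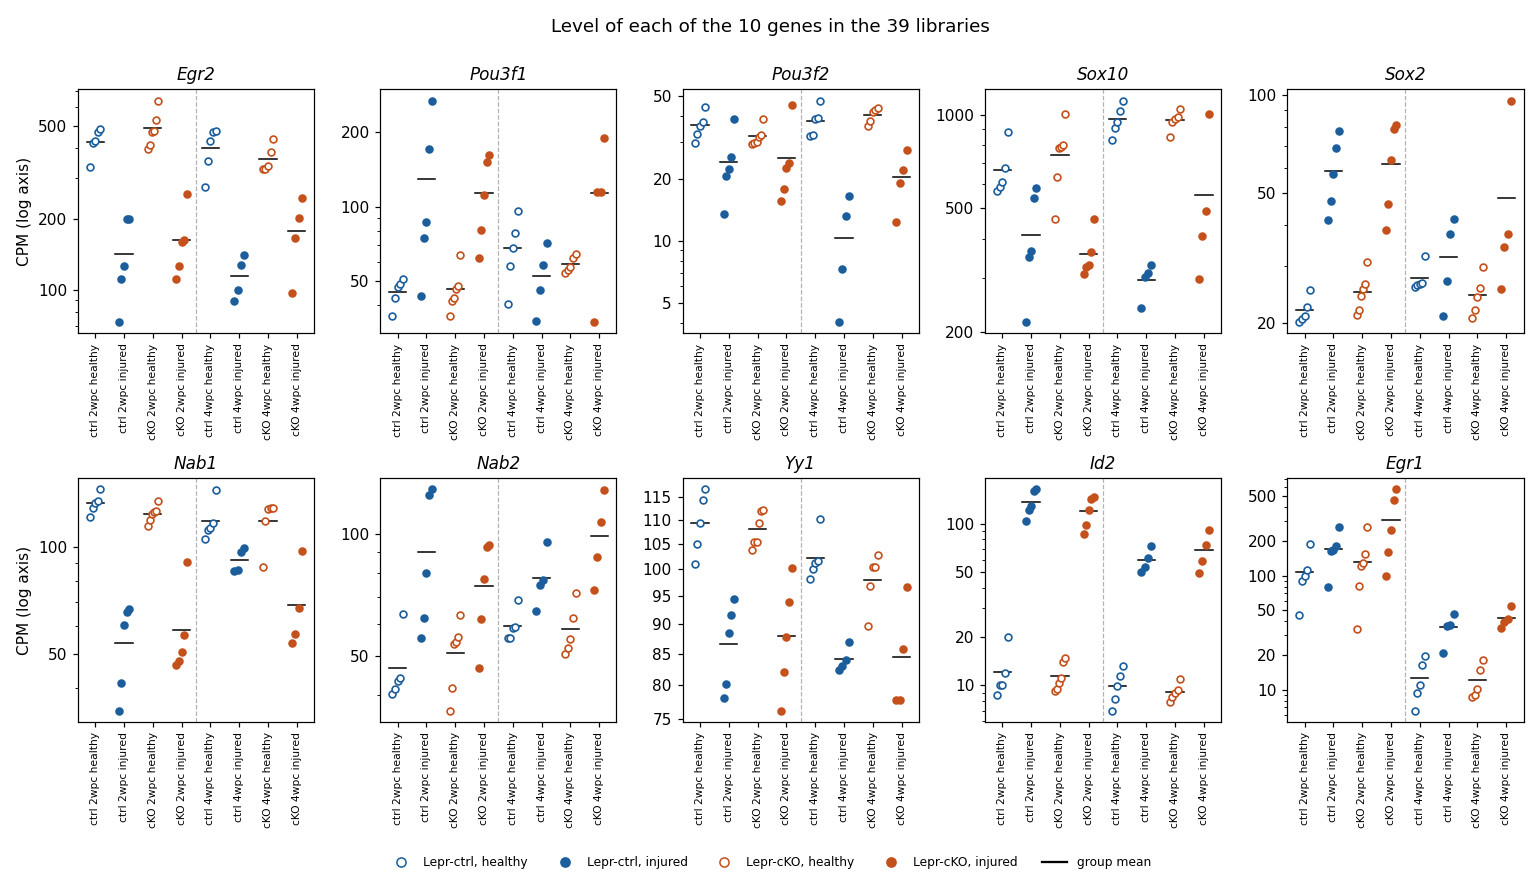
CPM of each of the 10 genes (y axis, log scale) in the 39 libraries, by group (x axis). Open points are healthy and filled points injured nerves, blue Lepr-ctrl and orange Lepr-cKO, the black line is the group mean and the dashed line parts 2 wpc from 4 wpc. Egr2 was lower and Id2 higher in every injured library than in every healthy one.

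The first comparison asked how each gene differed between the injured and the healthy endoneurium in each genotype at each time. Egr2, Sox10 and Yy1 fell and Id2 rose in each of the 4 comparisons. Sox2, Pou3f1 and Nab2 rose and Nab1 fell in all of them but that of Lepr-ctrl mice at 4 wpc. At 2 wpc in Lepr-ctrl mice 4 of the 10 genes passed the test as higher and 5 as lower, where 33.7% of all genes tested were higher and 30.2% lower. In Lepr-cKO mice at 2 wpc 5 were higher and 4 lower (background 35.9% and 29.2%). At 4 wpc 2 were higher and 4 lower in Lepr-ctrl mice (32.4% and 31.2%), and 5 were higher and 5 lower in Lepr-cKO mice (29.6% and 25.8%).

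With an absolute log2 fold change above 1 asked for as well, 5, 7, 5 and 3 of the 10 genes passed in the same order of comparisons, against 34.1%, 34.3%, 36.0% and 27.6% of all genes tested. The injured and healthy libraries did not overlap for 5, 5, 7 and 5 of the 10 genes, against 47.9%, 41.4%, 54.8% and 41.9% of all genes. Most genes of the tissue moved, so these counts are not read as a result about the 10 genes. In bulk tissue, fewer Schwann cells and less RNA per Schwann cell cannot be told apart.

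Egr2, the activator of the myelin programme, fell in all 4 comparisons. In healthy Lepr-ctrl nerves at 2 wpc it was at 332.6, 419.7, 430.7, 468.0 and 482.7 CPM, and in injured ones at 72.9, 110.8, 125.7, 200.3 and 200.5 CPM. In Lepr-cKO mice at 2 wpc the 6 healthy libraries ran from 397.9 to 639.1 CPM with a median of 471.2, and the injured ones were at 110.7, 125.5, 160.1, 162.3 and 255.0 CPM. The groups did not overlap, and the injured nerve was the lower one in 4 of 4 and 5 of 5 mice with both nerves. The log2 fold changes were -1.59 (SE 0.24, adjusted p = 6.06e-07) in Lepr-ctrl and -1.58 (SE 0.23, adjusted p = 3.7e-07) in Lepr-cKO nerves.

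At 4 wpc, Egr2 in Lepr-ctrl mice was at 273.5, 352.9, 430.7, 467.7 and 472.9 CPM in healthy nerves and at 89.2, 99.8, 127.1 and 140.3 CPM in injured ones. In Lepr-cKO mice it was at 324.9, 326.4, 334.7, 385.0 and 437.3 CPM in healthy nerves and at 96.6, 165.0, 201.4 and 245.3 CPM in injured ones. The groups again did not overlap. The log2 fold changes were -1.81 (SE 0.26, adjusted p = 2.99e-07) in Lepr-ctrl and -1.03 (SE 0.25, adjusted p = 0.00086) in Lepr-cKO mice. Leaving out any 1 library kept Egr2 past the test in all 4 comparisons.

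Motif letters were read in the sequences at the starts of the genes. RefSeq promoter windows (GRCm38.p6, 250 bases before to 50 after a start) matched 7 of the 10 genes in 11 windows. They were searched on both strands for GCGTGGGCG, known for Egr proteins, and for the core GTGGGCG that lies within it. The other motifs were ATGCAAAT, the octamer of POU proteins, AAGATGGC for Yy1, and for Sox proteins ACAAAG and, differing from it in 1 letter, ACAATG. The matches below are shown because Egr2 and Nab1 held letters known for Egr and POU proteins, and each is a description, not a bound site. Each is printed in the gene's orientation with the match in capitals and 10 bases on each side:
Egr2, octamer: ccaagcccgtATGCAAATtggccatgtg
Egr2, Egr core: gcaatcctccCGCCCACgtgcaccgac
Nab1, first Egr match: gccccgcggcCGCCCACGCcgggatctgc
Nab1, second Egr match: actcggccgcGCGTGGGCGggagccggag

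The octamer stands at chr10:67537732-67537759 (plus strand), 127 bases before a RefSeq start of Egr2 and in an annotated intron. Among all 32851 promoter windows of the same length, 1.74% hold this octamer. The shares given here are per window, and Egr2 was searched in 5 windows. The core, read here on the minus strand, stands at chr10:67535458-67535484, 31 bases before another RefSeq start of Egr2, and 7.97% of windows hold it. The Nab1 matches stand at chr1:52500571-52500599 and chr1:52500539-52500567 on the minus strand, 141 and 109 bases before the RefSeq start and in an annotated exon. The longer Egr motif is in 0.612% of windows, and Nab1 holds it on each strand. G and C made up 81.7% of the Nab1 window, and the share is over windows of any base content. Of the other members with a window, Sox2 held ACAAAG once, 206 bases before its start, and 28.6% of windows hold that or ACAATG. No window of a member held AAGATGGC, which 2.75% of all windows hold.

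Pou3f1, the POU factor of the promyelinating cell, was higher after injury at 2 wpc. Its exons share 330 bases with the antisense gene Gm2164, and without strand the reads there cannot be told apart. At 2 wpc in Lepr-ctrl mice it was at 36.2, 42.9, 47.5, 48.9 and 50.9 CPM in healthy nerves and at 43.7, 74.6, 87.0, 170.7 and 267.6 CPM in injured ones. In Lepr-cKO mice the healthy libraries ran from 36.4 to 63.7 CPM with a median of 44.8, and the injured ones were at 62.2, 80.3, 111.4, 151.3 and 161.5 CPM. The lowest injured library of each genotype lay among the healthy ones, and these 2 libraries, SLRKO2wpc144i and SLRKO2wpc135i, are those with the highest mitochondrial share. Fold changes on the log2 scale were 1.51 (SE 0.35, adjusted p = 0.000338) and 1.28 (SE 0.33, adjusted p = 0.000952), and the injured nerve was higher in 4 of 4 and 5 of 5 mice.

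At 4 wpc Pou3f1 passed the test of injury in Lepr-cKO but not in Lepr-ctrl mice. The difference between these responses did not pass when tested directly, as given below. Lepr-ctrl nerves were at 40.7, 57.7, 68.2, 78.0 and 96.0 CPM when healthy and at 34.5, 46.2, 58.4 and 71.5 CPM when injured. Lepr-cKO nerves were at 54.0, 55.7, 57.3, 62.3 and 64.7 CPM when healthy and at 34.4, 114.3, 114.7 and 189.6 CPM when injured. In Lepr-ctrl mice the groups overlapped and the gene did not pass the test (log2 fold change -0.37, SE 0.37, adjusted p = 0.391). In Lepr-cKO mice 3 of the 4 injured libraries were above all healthy ones and 1, KO-177Sni, was below them, with a log2 fold change of 0.95 (SE 0.36, adjusted p = 0.0263). That call was lost without the injured KO-169Sni (0.58, adjusted p = 0.193), the injured KO-175Sni (adjusted p = 0.0526) or the healthy KO-177Snc (adjusted p = 0.0508).

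Pou3f2, the other POU factor of this stage, did not follow Pou3f1. It was at 29.9 to 44.4 CPM in healthy and 13.5 to 38.7 CPM in injured Lepr-ctrl nerves at 2 wpc, with overlap. Its log2 fold change of -0.59 (SE 0.26, adjusted p = 0.0483) stood at the threshold. With the animal as a block it was -0.46 (adjusted p = 0.133), and leaving out any of 8 of the 10 libraries raised the adjusted p above 0.05, to 0.15 at most. It was also above 0.05 with DESeq2 (0.0736), with no filter on low counts (0.0638) and with mitochondrially encoded genes left out of normalization (0.0571). In Lepr-cKO mice at 2 wpc the value was -0.36 (SE 0.25, adjusted p = 0.208), with 1 injured library, SLRKO2wpc125i, at 45.6 CPM and the others at 15.5 to 23.8 CPM. The healthy libraries there were at 29.3 to 39.1 CPM, so every injured library but SLRKO2wpc125i lay below them.

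At 4 wpc Pou3f2 fell in both genotypes without overlap. In Lepr-ctrl mice the healthy libraries were at 32.3 to 47.8 CPM and the injured ones at 4.04, 7.31, 13.1 and 16.5 CPM, a log2 fold change of -1.88 (SE 0.30, adjusted p = 1.8e-06). In Lepr-cKO mice the injured libraries were at 12.3, 19.1, 22.1 and 27.5 CPM against 36.0 to 43.9 CPM, a log2 fold change of -1 (SE 0.29, adjusted p = 0.00342).

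**Figure D2:**
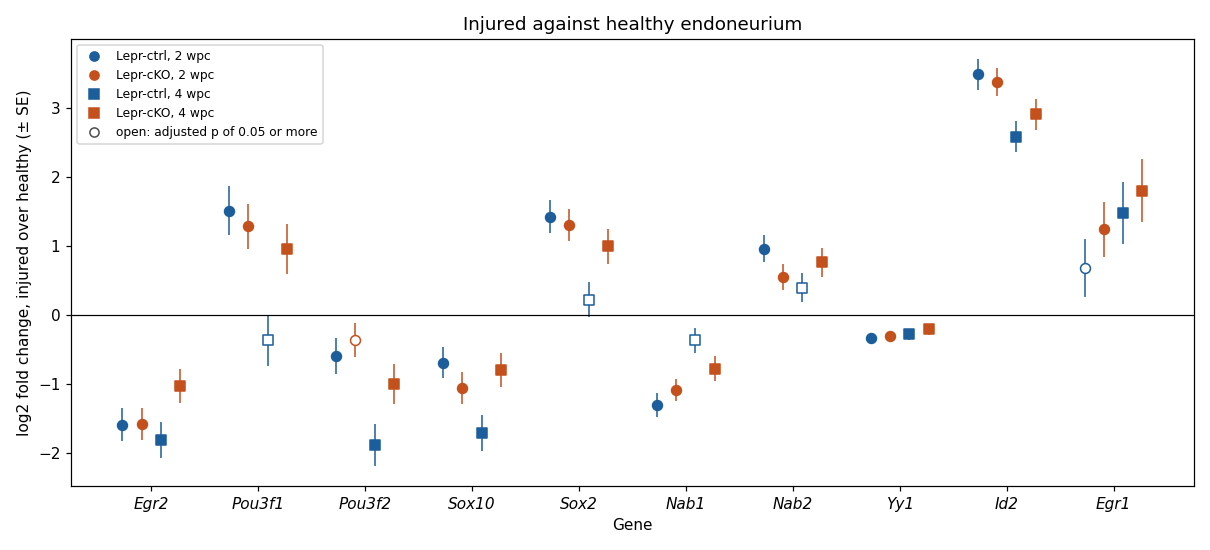
Log2 fold change of injured over healthy nerve (y axis, error bars SE) for each of the 10 genes (x axis) in 4 comparisons, circles at 2 wpc and squares at 4 wpc, blue Lepr-ctrl and orange Lepr-cKO, open where the adjusted p was 0.05 or more. Id2 lay between 2.58 and 3.48 and Egr2 between -1.81 and -1.03, while Pou3f1 and Sox2 are drawn open for Lepr-ctrl mice at 4 wpc, at -0.37 and 0.22.

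Sox10, which marks the whole lineage, fell in all 4 comparisons. At 2 wpc it was at 568.5 to 876.6 CPM in healthy and 216.5, 349.6, 365.0, 540.4 and 583.1 CPM in injured Lepr-ctrl nerves, and the highest injured library overlapped the healthy ones. The log2 fold changes were -0.69 (SE 0.23, adjusted p = 0.0102) in Lepr-ctrl and -1.06 (SE 0.23, adjusted p = 0.000124) in Lepr-cKO nerves. At 4 wpc the Lepr-ctrl libraries did not overlap, at 831.6 to 1109.0 CPM healthy and 239.8, 300.6, 311.0 and 328.1 CPM injured, a log2 fold change of -1.71 (SE 0.26, adjusted p = 6.48e-07). In Lepr-cKO mice the injured libraries were at 297.2, 408.7, 491.4 and 1006.2 CPM. The last, KO-169Sni, lay inside the healthy range of 848.6 to 1043.2 CPM. The log2 fold change there was -0.80 (SE 0.25, adjusted p = 0.00712), and without KO-169Sni it was -1.26 (adjusted p = 2.88e-05).

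The co-regulators of the Egr proteins moved in opposite directions. Nab1 was at 121.2, 128.6, 132.6, 134.6 and 145.1 CPM in healthy Lepr-ctrl nerves at 2 wpc and at 34.6, 41.3, 60.2, 65.4 and 66.8 CPM in injured ones, with no overlap. Nab2 was at 40.3, 41.3, 43.4, 44.0 and 63.5 CPM in the same healthy nerves and at 55.2, 61.9, 80.1, 125.1 and 128.8 CPM in the injured ones. The 2 libraries with the lowest Nab1, SLRKO2wpc123i and SLRKO2wpc147i, were the 2 with the highest Nab2. The log2 fold changes were -1.30 (SE 0.17, adjusted p = 3.93e-08) for Nab1 and 0.96 (SE 0.20, adjusted p = 0.00012) for Nab2.

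In Lepr-cKO mice at 2 wpc the log2 fold changes were -1.09 (SE 0.16, adjusted p = 5.8e-07) for Nab1 and 0.55 (SE 0.19, adjusted p = 0.0122) for Nab2. At 4 wpc in Lepr-ctrl mice neither passed the test, at -0.37 (SE 0.18, adjusted p = 0.0717) for Nab1 and 0.39 (SE 0.21, adjusted p = 0.108) for Nab2, although the Nab1 libraries did not overlap (85.4 to 99.3 against 105.5 to 144.9 CPM). In a fit of these groups alone both passed, at -0.33 (adjusted p = 0.0113) and 0.43 (adjusted p = 0.00432). At 4 wpc in Lepr-cKO mice Nab1 fell (-0.78, SE 0.18, adjusted p = 0.000415) and Nab2 rose (0.76, SE 0.21, adjusted p = 0.00284). Exons of Nab2 share 40 bases with Stat6, 151 with Nemp1 and 1050 with the antisense gene Gm16229, all on the opposite strand. Reads there cannot be told apart without strand. Over all libraries Nab2 had 71242 counts, Stat6 178138, Nemp1 24560 and Gm16229 164.

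Yy1, a broadly expressed zinc finger protein, moved little. It was at 101.0 to 116.6 CPM in healthy and 78.1 to 94.5 CPM in injured Lepr-ctrl nerves at 2 wpc, with no overlap, a log2 fold change of -0.34 (SE 0.07, adjusted p = 0.000124). The other 3 comparisons gave -0.30 (adjusted p = 0.000342), -0.28 (adjusted p = 0.00179) and -0.21 (adjusted p = 0.0172), the last for Lepr-cKO mice at 4 wpc. That call was lost without the injured KO-176Sni (-0.19, adjusted p = 0.0541), with no filter on low counts (-0.22, adjusted p = 0.0627) and with a fit of these groups alone (-0.20, adjusted p = 0.0751). The median of all genes tested was between 0.02 and 0.10 in these comparisons, above the values of Yy1.

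Sox2, which opposes myelination, rose at 2 wpc. In Lepr-ctrl mice it was at 20.2, 20.6, 21.0, 22.4 and 25.2 CPM in healthy and at 41.4, 47.3, 57.5, 68.9 and 77.6 CPM in injured nerves. In Lepr-cKO mice it was at 21.2 to 30.8 CPM (median 24.9) in healthy and at 38.7, 46.3, 63.4, 78.5 and 80.8 CPM in injured nerves. Neither genotype overlapped, and the log2 fold changes were 1.42 (SE 0.24, adjusted p = 4.65e-06) and 1.30 (SE 0.23, adjusted p = 6.76e-06).

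At 4 wpc Sox2 in Lepr-ctrl mice was at 25.9, 26.1, 26.4, 26.6 and 32.1 CPM in healthy and at 21.1, 27.0, 37.6 and 41.8 CPM in injured nerves, which overlapped, and it did not pass the test (0.22, SE 0.25, adjusted p = 0.455). In Lepr-cKO mice it was at 20.7, 21.9, 24.0, 25.7 and 29.8 CPM in healthy and at 25.4, 34.3, 37.6 and 96.3 CPM in injured nerves, a log2 fold change of 0.99 (SE 0.25, adjusted p = 0.00115). The value of 96.3 CPM is KO-169Sni. Without it the log2 fold change was 0.41 (adjusted p = 0.0865), so the call rests on that library.

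Id2, an inhibitor of basic helix-loop-helix factors, rose most of the 10 genes. In Lepr-ctrl mice at 2 wpc it was at 8.77, 10, 10.1, 11.9 and 19.8 CPM in healthy and at 104.3, 121.0, 129.3, 159.9 and 162.7 CPM in injured nerves, 11.2-fold higher (log2 fold change 3.48, SE 0.22, adjusted p = 1.99e-15). In Lepr-cKO mice it was 10.3-fold higher at 2 wpc (log2 fold change 3.37, SE 0.20, adjusted p = 5.7e-16). At 4 wpc the injured Lepr-ctrl libraries were at 50.2, 54.2, 61.7 and 72.5 CPM and the Lepr-cKO ones at 49.4, 59.1, 73.6 and 91.6 CPM, against at most 13.2 CPM in healthy nerves. Injured and healthy libraries did not overlap in any comparison, and every injured library at 4 wpc of Lepr-ctrl mice was below every one at 2 wpc. The log2 fold changes at 4 wpc were 2.58 (SE 0.22, adjusted p = 3.9e-12) and 2.90 (SE 0.22, adjusted p = 8.68e-13).

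Egr1, the immediate-early relative of Egr2, varied widely between libraries and stood at different levels in the 2 sets of mice. In healthy nerves it was at 34.1 to 265.6 CPM at 2 wpc and at 6.54 to 19.9 CPM at 4 wpc, over both genotypes, with no overlap. Injured nerves were at 79.6 to 572.5 CPM at 2 wpc and at 21.1 to 54.0 CPM at 4 wpc. The times were separate sets of mice, so time after crush and the handling of each set cannot be told apart. The 10 other immediate-early genes, summed, were at 425.0 to 1056.3 CPM in healthy nerves at 2 wpc and at 337.1 to 418.4 CPM at 4 wpc. The most abundant of them, Nr4a1, had means of 227.5 CPM at 2 wpc and 246.9 CPM at 4 wpc in healthy Lepr-ctrl nerves. Fos had means of 78.5 and 13.4 CPM there, so the sum does not show how single genes differed between the sets.

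**Figure D3:**
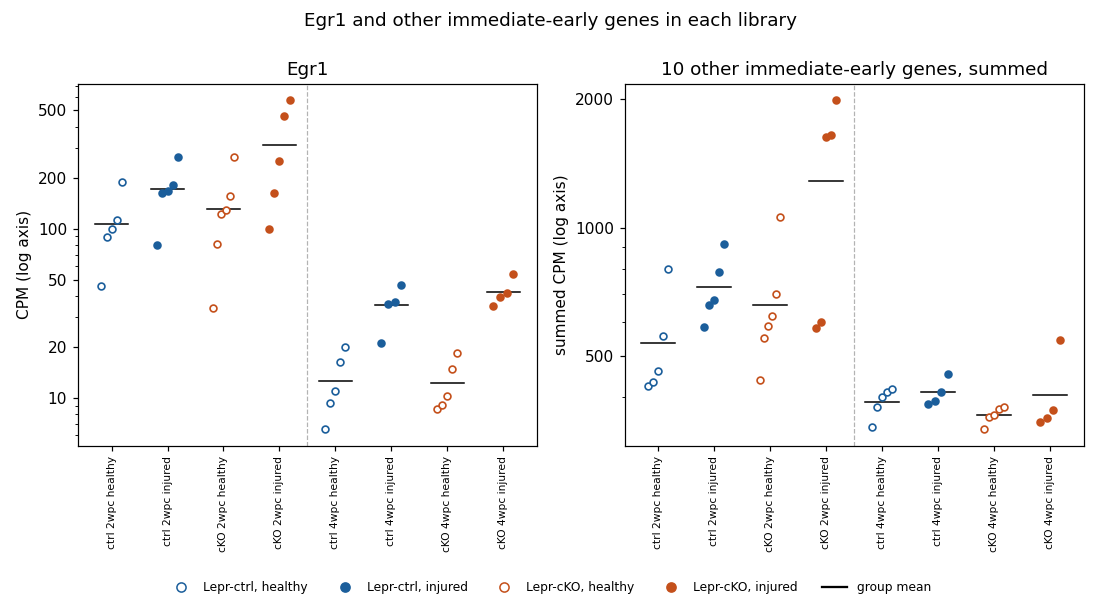
CPM of Egr1 (left) and summed CPM of 10 other immediate-early genes (right), both on a log y axis, in each library by group. Open points are healthy and filled points injured nerves, and the black line is the group mean. Healthy nerves held 34.1 CPM of Egr1 or more at 2 wpc and 19.9 CPM or less at 4 wpc.

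Egr1 rose with injury in 3 of the 4 comparisons. At 4 wpc the injured libraries were at 21.1, 36.1, 37.0 and 46.4 CPM in Lepr-ctrl and 35.0, 39.4, 41.4 and 54.0 CPM in Lepr-cKO mice, above all healthy ones. Injury gave log2 fold changes of 1.48 (SE 0.45, adjusted p = 0.00526) and 1.80 (SE 0.45, adjusted p = 0.00111). At 2 wpc Lepr-cKO mice gave 1.24 (SE 0.40, adjusted p = 0.0069) and Lepr-ctrl mice 0.68 (SE 0.42, adjusted p = 0.154). With the animal as a block the latter was 0.98 (adjusted p = 0.0489), past the threshold.

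Ratios within a library do not depend on its scaling, and they show how the members stood to each other. The ratio of Sox2 to Egr2 was 0.0344 to 0.0946 in all healthy libraries and 0.14 to 0.622 in all injured ones, so the 2 sets did not overlap in any group. Sox2 to Sox10 (0.0219 to 0.0668 healthy, 0.0697 to 0.224 injured) and Pou3f1 to Sox10 (0.049 to 0.0865 healthy, 0.116 to 0.459 injured) did not overlap either. For both this includes Lepr-ctrl mice at 4 wpc, where the CPM of Pou3f1 and of Sox2 overlapped between nerves and neither passed the test. Mean Sox10 there was 964.7 CPM in healthy and 294.9 CPM in injured nerves. Mean Pou3f1 was 68.1 and 52.7 CPM, and mean Sox2 27.4 and 31.9 CPM. Pou3f1 and Sox2 were thus higher relative to the lineage gene in each injured library, which does not show that their own levels were raised.

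Egr2 to Sox10 behaved otherwise. In Lepr-ctrl mice at 2 wpc it was 0.534 to 0.822 in healthy and 0.304 to 0.371 in injured nerves, with no overlap, so Egr2 was lower relative to Sox10 in each injured library. At 4 wpc the same ratio was 0.301 to 0.518 in healthy and 0.297 to 0.53 in injured nerves, which overlapped. Its median in Lepr-ctrl mice was 0.622 at 2 wpc and 0.426 at 4 wpc in healthy nerves, and 0.343 and 0.3745 in injured ones. The healthy nerves thus differed more between the 2 sets of mice than the injured ones did. In Lepr-cKO mice Egr2 to Sox10 was 0.398 to 1.03 against 0.337 to 0.552 at 2 wpc and 0.34 to 0.419 against 0.2 to 0.499 at 4 wpc, overlapping at both times. Pou3f1 to Pou3f2 was 0.966 to 2.43 in healthy and 2.78 to 8.56 in injured libraries, and the sets did not overlap.

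**Figure D4:**
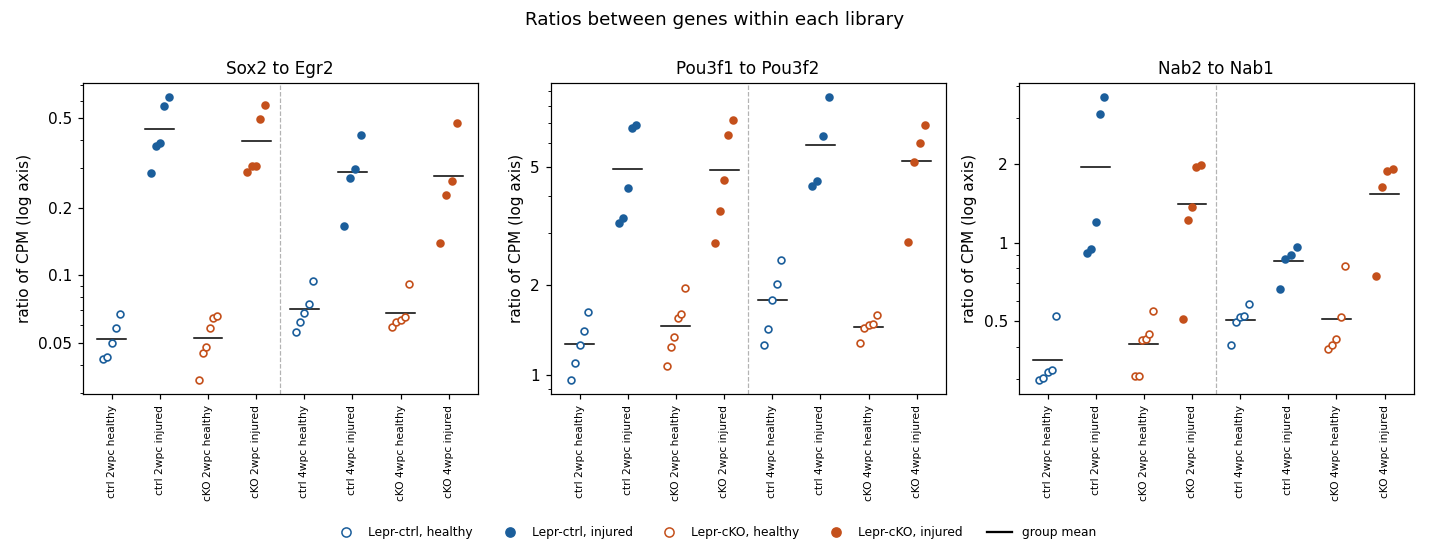
Ratio of the CPM of 2 genes within each library (y axis, log scale) by group (x axis), with open points for healthy and filled points for injured nerves and a black line at the group mean. Sox2 to Egr2 and Pou3f1 to Pou3f2 did not overlap between healthy and injured libraries, and Nab2 to Nab1 was 0.299 to 0.817 in healthy and 0.513 to 3.62 in injured ones.

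The second comparison asked whether the 10 genes differed between Lepr-cKO and Lepr-ctrl mice. None passed the test in healthy nerves, where edgeR called 0.0108% of all genes at 2 wpc and 0.00542% at 4 wpc and no member had an unadjusted p under 0.05 (1.20% of all genes at 2 wpc and 1.88% at 4 wpc had one), nor did DESeq2 call a member. None passed in injured nerves at 2 wpc, where 0.580% of all genes were called and 1 member, Egr1, had an unadjusted p under 0.05, against 6.44% of all genes (log2 fold change of Lepr-cKO over Lepr-ctrl 0.85, SE 0.42, adjusted p = 0.774). The 95% intervals of the difference in injured nerves at 2 wpc were -0.28 to 0.67 for Egr2, -0.88 to 0.51 for Pou3f1, -0.41 to 0.55 for Sox2 and -0.59 to 0.21 for Id2 on the log2 scale.

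In injured nerves at 4 wpc, no member passed the test either, against 1.31% of all genes, and 6 of the 10 had an unadjusted p under 0.05, against 19.9% of all genes. Sox10 had a log2 fold change of Lepr-cKO over Lepr-ctrl of 0.90 (SE 0.26, adjusted p = 0.0633), Pou3f2 of 0.97 (SE 0.31, adjusted p = 0.0811) and Pou3f1 of 1.1 (SE 0.39, adjusted p = 0.107). Egr2 was at 0.63 (SE 0.26, adjusted p = 0.17), Sox2 at 0.60 (SE 0.27, adjusted p = 0.2) and Nab1 at -0.42 (SE 0.19, adjusted p = 0.207). For each of these the 4 Lepr-cKO and 4 Lepr-ctrl libraries overlapped. DESeq2 called 2 of the 10, Sox10 (0.87, adjusted p = 0.0269) and Pou3f2 (0.95, adjusted p = 0.0399), against 5.19% of the genes to which it gave an adjusted p.

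One library decided how many members passed there. Without the injured Lepr-cKO KO-177Sni, which was the lowest of its group for Egr2, Pou3f1, Pou3f2, Sox10, Sox2 and Id2 and the highest for Nab1, 6 members passed the test, against 12.1% of all genes in that fit. They were Sox10 (1.09, adjusted p = 0.00722), Pou3f1 (1.38, adjusted p = 0.0149), Pou3f2 (1.13, adjusted p = 0.0186), Nab1 (-0.64, adjusted p = 0.0262), Egr2 (0.82, adjusted p = 0.0347) and Sox2 (0.79, adjusted p = 0.041). KO-177Sni had the highest mitochondrial share of its group, 20.2%, close to the 17.2% to 21.6% of the Lepr-ctrl libraries. KO-169Sni was the highest of its group for Sox10, Pou3f1, Pou3f2 and Sox2. Without it the values were 0.44 for Sox10 and 0.02 for Sox2, and no member passed. The part of these 2 libraries in the result beyond those values was not tested.

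The difference between genotypes in the response to injury was also tested directly. At 2 wpc edgeR called 0 of the 10 genes and 0% of all genes, with no member and 797 genes (4.32%) at an unadjusted p under 0.05 and 2 genes called by DESeq2. At 4 wpc it called 0 of the 10 and 0% of all genes, with 2013 genes at an unadjusted p under 0.05 and 3 called by DESeq2, none of them a member. At 4 wpc 5 members had an unadjusted p under 0.05, against 10.9% of all genes. The differences were 1.32 (SE 0.52, adjusted p = 0.396) for Pou3f1, 0.91 (SE 0.35, adjusted p = 0.384) for Sox10, 0.88 (SE 0.40, adjusted p = 0.435) for Pou3f2, 0.78 (SE 0.35, adjusted p = 0.435) for Egr2 and 0.77 (SE 0.36, adjusted p = 0.439) for Sox2, all toward higher values in injured Lepr-cKO nerves. The larger fall of Egr2 and Sox10 in Lepr-ctrl mice at 4 wpc is therefore not shown to differ from that in Lepr-cKO mice. The differences at 4 wpc include KO-169Sni. Without it the injury response of Lepr-cKO mice lay closer to that of Lepr-ctrl mice for Pou3f1, Sox10 and Sox2, as given above. The differences themselves are not given here without that library.

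The third comparison asked whether the response to injury differed between 2 and 4 wpc, with the healthy nerves of each set of mice as their own reference. In Lepr-ctrl mice 5 of the 10 genes passed the test, against 9.10% of all genes. The response was lower at 4 wpc by 1.88 (SE 0.51, adjusted p = 0.0165) for Pou3f1, 1.28 (SE 0.39, adjusted p = 0.0336) for Pou3f2, 1.2 (SE 0.35, adjusted p = 0.0261) for Sox2 and 0.91 (SE 0.29, adjusted p = 0.0442) for Id2 on the log2 scale. These are differences of 2 fold changes, to which the healthy nerves of each set also contribute. Mean Pou3f1 was 128.7 CPM in injured and 45.3 CPM in healthy nerves at 2 wpc, and 52.7 and 68.1 CPM at 4 wpc. For Nab1 it was 0.94 higher (SE 0.24, adjusted p = 0.0129). Sox10 differed by -1.02 (SE 0.34, adjusted p = 0.0523) and, with the animal as a block, by -1.07 (adjusted p = 0.0192). It also passed with DESeq2, with a fit of these groups alone, with mitochondrially encoded genes left out of normalization and with at least 10 counts required in every library (adjusted p from 0.0282 to 0.0431). Egr2 differed by -0.22 (SE 0.34, adjusted p = 0.741).

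The calls for Pou3f1, Pou3f2, Sox2 and Id2 changed with the libraries kept. Without the injured Lepr-ctrl SLRKO2wpc123i at 2 wpc, which had the highest Pou3f1, Pou3f2, Sox10, Sox2 and Id2 of its group, 1 of the 10 genes passed, Nab1. The differences there were -1.43 for Pou3f1 (adjusted p = 0.0644), -1.05 for Pou3f2 (adjusted p = 0.0977), -1.08 for Sox2 (adjusted p = 0.0628) and -0.84 for Id2 (adjusted p = 0.0906). Without the injured WT-178Sni at 4 wpc 2 passed, and without the healthy WT-171Snc or the injured WT-170Sni at 4 wpc 3 passed. Nab1 passed in all 19 such fits, Pou3f1 in 18, Sox2 in 17, Pou3f2 in 14 and Id2 in 7. The call for Id2 was also lost with no filter on low counts (-0.92, adjusted p = 0.0644) and with a fit of these groups alone (-0.90, adjusted p = 0.0574). In Lepr-cKO mice none of the 10 genes passed, against 2.09% of all genes, with 0.55 (SE 0.33, adjusted p = 0.468) for Egr2 and -0.34 (SE 0.49, adjusted p = 0.828) for Pou3f1. The value for Pou3f1 includes KO-169Sni, without which its response at 4 wpc was smaller, as given above. The time difference without that library is not given here. Whether the change with time itself differed between genotypes was not tested.

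The genes that these factors act on were read from lists named for their known place around the 10 members. Of all genes tested, 33.7%, 35.9%, 32.4% and 29.6% rose and 30.2%, 29.2%, 31.2% and 25.8% fell in Lepr-ctrl 2 wpc, Lepr-cKO 2 wpc, Lepr-ctrl 4 wpc and Lepr-cKO 4 wpc, and the counts of each list stand beside these shares in that order. Of 18 myelin genes known as targets of Egr2 and Sox10, 16, 17, 18 and 13 fell and none rose, with medians of -1.69, -1.74, -1.88 and -0.96 against 0.08, 0.10, 0.02 and 0.06 for all genes. At 2 wpc in Lepr-ctrl mice Drp2, of the dystrophin complex at the myelin surface, fell by 3.78 on the log2 scale (adjusted p = 2.88e-14). Prx, which organises that complex, fell by 2.80 (adjusted p = 4.79e-11) and Mbp, a structural myelin protein, by 2.17 (adjusted p = 1.03e-08).

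All 10 genes of the sterol synthesis list, which Egr2 activates together with sterol-responsive factors, fell in each of the 4 comparisons, with medians of -2.48, -2.39, -2.94 and -2.05. In Lepr-ctrl mice at 2 wpc Sqle, which oxidises squalene, fell by 3.06 (adjusted p = 2.49e-13). In injured nerves at 4 wpc 7 of the 10 were higher in Lepr-cKO than in Lepr-ctrl mice, where 188 of the 18442 genes tested were higher. Sqle was 1.01 higher on the log2 scale (SE 0.25, adjusted p = 0.0415). The count of 7 was 9 with DESeq2, 0 with a fit of these groups alone, and 0 without the injured Lepr-ctrl WT-170Sni or WT-178Sni or the injured Lepr-cKO KO-176Sni.

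**Figure D5:**
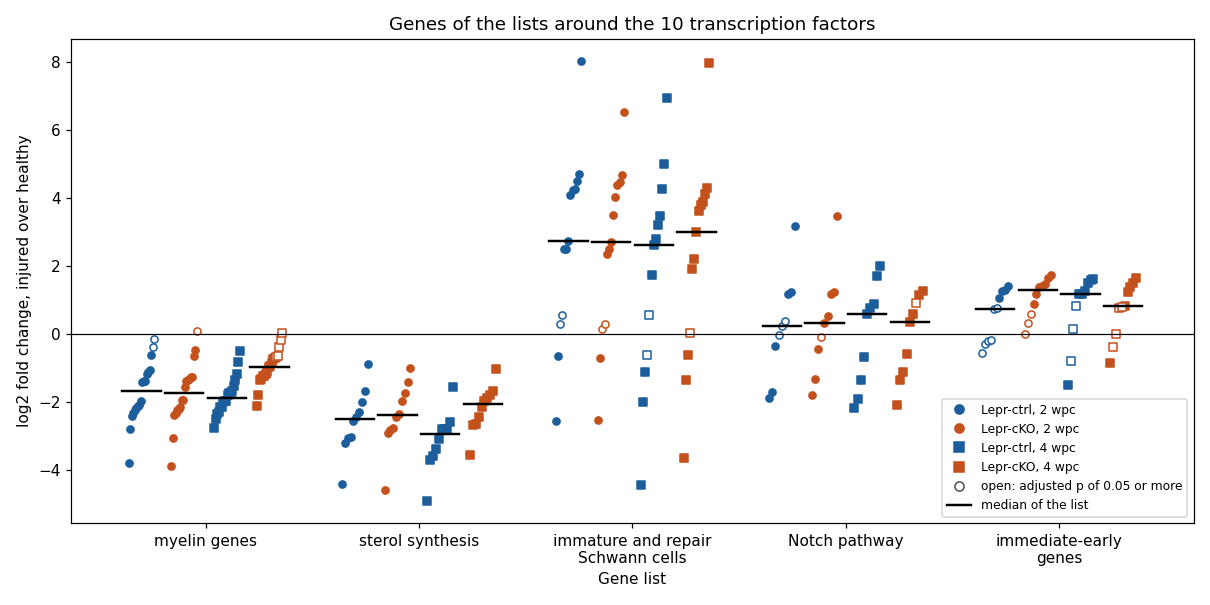
Log2 fold change of injured over healthy nerve (y axis) for each gene of 5 lists (x axis), circles at 2 wpc and squares at 4 wpc, blue Lepr-ctrl and orange Lepr-cKO, open where the adjusted p was 0.05 or more, with a black line at the median of the list. Every sterol synthesis gene lay below 0, and the medians of the immature and repair genes lay between 2.62 and 3.

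Among 29 other transcription factors and chromatin factors of the lineage that could be tested of 31 listed, 16, 19, 17 and 14 rose and 5, 4, 7 and 5 fell, with medians of 0.57, 0.64, 0.52 and 0.36. In Lepr-ctrl mice at 2 wpc Runx2, known from bone and induced in injured Schwann cells, rose by 4.09 (adjusted p = 1.21e-16) and Sox4 by 3.03 (adjusted p = 3.3e-13) on the log2 scale. Srebf2, which drives sterol synthesis genes, fell by 2.37 (adjusted p = 6.89e-13) and Maf, which supports lipid synthesis in myelinating cells, by 2.06 (adjusted p = 1.08e-12). Jun, which governs the repair cell, rose by 1.28 (SE 0.21, adjusted p = 3.89e-06) at 2 wpc and by 0.73 (SE 0.22, adjusted p = 0.00493) at 4 wpc in Lepr-ctrl mice. Zeb2, a repressor needed for myelination, rose by 0.58 (adjusted p = 0.000922) and 0.65 (adjusted p = 0.000456) there. Pax3, of the immature cell, was below the filter in these libraries.

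The relatives of the Egr and Id genes moved in both directions. Of 4 that could be tested of 5, Egr3, Id1 and Id3 rose and Id4 fell in each of the 4 comparisons. Egr3 in Lepr-ctrl mice at 2 wpc rose by 2.37 (SE 0.40, adjusted p = 4.41e-06), Id1 by 1.70 (SE 0.47, adjusted p = 0.00199) and Id3 by 1.45 (SE 0.21, adjusted p = 4.41e-07), and Id4 fell by 1.6 (SE 0.33, adjusted p = 6.39e-05). Of the 10 immediate-early genes 4, 7, 6 and 5 rose and 0, 0, 1 and 1 fell, with medians of 0.75, 1.29, 1.18 and 0.81. Atf3 rose by 1.42 (adjusted p = 1.88e-06) and Junb by 1.31 (adjusted p = 6.7e-05) in Lepr-ctrl mice at 2 wpc, while Fos was at 0.76 (SE 0.44, adjusted p = 0.126). The gene that fell at 4 wpc was Nr4a1, a nuclear receptor, by 1.51 (SE 0.27, adjusted p = 8.07e-06) in Lepr-ctrl and by 0.84 (SE 0.26, adjusted p = 0.00635) in Lepr-cKO mice.

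Of 13 genes of the immature and the repair Schwann cell, 9, 9, 8 and 9 rose and 2, 2, 3 and 3 fell, with medians of 2.75, 2.7, 2.62 and 3. Gap43, a growth-associated protein, rose by 4.26 (adjusted p = 5.34e-17) in Lepr-ctrl mice at 2 wpc, and Ngfr, the p75 neurotrophin receptor, by 2.52 (SE 0.37, adjusted p = 3.59e-07). The cell adhesion genes Cdh2 (-2.55, adjusted p = 8.48e-07) and Ncam1 (-0.64, adjusted p = 0.00321) of the same list fell. Between the times the response of 4 of the 13 was lower at 4 wpc in Lepr-ctrl mice and that of none was higher, against 9.10% of all genes in either direction. Gap43 was at 0.76 (SE 0.30, adjusted p = 0.102). Ngfr at 4 wpc in Lepr-ctrl mice did not pass the test (0.57, SE 0.37, adjusted p = 0.174), and its response to injury differed between the times by -1.95 (SE 0.52, adjusted p = 0.0146).

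The Notch pathway acts upstream in the immature cell. Of 9 genes tested of 10, 3, 5, 5 and 4 rose and 3, 3, 4 and 4 fell, beside the shares of all genes given above, and these counts are not read as a result about the pathway. The ligand Dll1 in Lepr-ctrl mice at 2 wpc rose by 3.18 (SE 0.53, adjusted p = 3.8e-06) and the effector Hes1 by 1.23 (SE 0.24, adjusted p = 3.33e-05). The receptor Notch2 fell by 1.89 (SE 0.21, adjusted p = 1.06e-09) and the effector Hey2 by 1.69 (SE 0.27, adjusted p = 1.9e-06). The receptor Notch1 was at -0.03 (SE 0.26, adjusted p = 0.919) at 2 wpc and fell by 1.34 (SE 0.29, adjusted p = 0.00013) at 4 wpc.

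Markers of other cells moved with injury as well. In Lepr-ctrl mice at 2 wpc 6 of 8 macrophage genes rose, and their summed level went from 191.9 ± 43.0 CPM in healthy to 1820.7 ± 794.3 CPM in injured nerves (SD, n = 5 each). Aif1 rose by 3.71 (adjusted p = 5.51e-13) and Cd68 by 3.76 (adjusted p = 4.72e-12) on the log2 scale. The most abundant was Lyz2, at means of 89.9 and 1485.8 CPM. Of the 9 Schwann cell markers, which include Sox10 itself, 5, 5, 9 and 4 fell and 0, 1, 0 and 0 rose, and their sum went from 51117.8 to 21668.4 CPM in Lepr-ctrl mice at 2 wpc. S100b, a calcium-binding protein of the lineage, fell by 2.39 (adjusted p = 2.07e-09) and Dhh by 1.22 (adjusted p = 2.1e-06). None of the macrophage or Schwann cell markers was at 0 in all libraries of a group. Of 6 proliferation genes 5, 5, 3 and 5 rose, Cdk1 by 4.56 (adjusted p = 2.77e-12) and Top2a by 4.03 (adjusted p = 4.91e-12) at 2 wpc in Lepr-ctrl mice. Of 5 endothelial genes 3, 3, 4 and 2 rose, among them Emcn (1.61) and Pecam1 (1.5). Of 5 fibroblast genes 1, 1, 0 and 1 rose and 3, 2, 2 and 0 fell, with Col3a1 at 0.69, Pdgfra at -1.69 and Dcn at -1.15, and of 5 perineurial genes 2, 1, 3 and 1 rose and 1 fell in each comparison, with Cldn1 at 2.01, Msln at 2.47 and Itgb4 at -1.12. All 5 adipocyte genes passed the test as higher in Lepr-ctrl mice at both times (Cfd at 9.12 and Cidec at 8.11 at 2 wpc), but few libraries carried them. Their sum in injured Lepr-ctrl nerves was 0.114, 0.44, 0.57, 129.3 and 221.8 CPM at 2 wpc and 0, 1.03, 134.1 and 217.7 CPM at 4 wpc. Lepr-cKO libraries, in which none passed, held up to 154.4 CPM in healthy and up to 1297.5 CPM in injured nerves, the latter in SLRKO2wpc126i. Of 8 muscle genes 0, 8, 1 and 0 rose, and without SLRKO2wpc126i 1 in place of 8 rose in Lepr-cKO mice at 2 wpc, where the other 4 injured libraries were at 6.35 to 22.5 CPM and the healthy ones at 3.31 to 28.2 CPM in sum. The part of the change in cell make-up in the values of the 10 genes was not tested.

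In injured nerves at 4 wpc the summed Schwann cell markers were at 13485.5 to 18564.2 CPM in Lepr-ctrl and at 16554.8, 31933.5, 38218.4 and 47907.4 CPM in Lepr-cKO mice, in the order of KO-177Sni, KO-175Sni, KO-176Sni and KO-169Sni. KO-177Sni was the lowest and KO-169Sni the highest, as for Sox10, Pou3f1, Pou3f2 and Sox2. Of the 9 markers 2 passed the test there, against 1.31% of all genes. They were Gjc3 (1.01, SE 0.24, adjusted p = 0.0366) and Dhh (1.59, SE 0.22, adjusted p = 0.000232). The regulatory sequence of Dhh drives Cre in these mice, and Dhh was higher in Lepr-cKO mice without overlap in all 4 groups. In healthy nerves it was at 358.4 to 417.9 against 485.9 to 624.9 CPM at 2 wpc and at 390.0 to 453.1 against 513.5 to 613.7 CPM at 4 wpc, but did not pass the test (adjusted p = 1 at each time). In injured nerves at 2 wpc it differed by 0.81 (SE 0.20, adjusted p = 0.0399). Macrophage markers in injured nerves at 4 wpc stood the other way, with a mean sum of 2810.8 CPM in Lepr-ctrl and 1642.7 CPM in Lepr-cKO mice. Lyz2 was at 2279.4 and 1308.2 CPM and Cd68 at 221.9 and 125.2 CPM, and none of the 8 passed the test. The part of Schwann cell and macrophage content in the genotype values of the 10 genes was not tested.

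The genes whose log2 CPM over the 39 libraries was most like that of 3 members are given as a description, since the libraries share the injury contrast. Of 12786 genes with a mean log2 CPM above 1, Jam3 (Pearson r = 0.964), Ado (0.964) and Nsdhl (0.955) were most like Egr2. Ephb3 (0.922), Sppl3 (0.916) and P3h3 (0.904) were most like Pou3f1. Cadm1 (0.929), Ednrb (0.925) and Mex3b (0.92) were most like Sox2. Jam3 and Cadm1 encode adhesion proteins, Nsdhl an enzyme of sterol synthesis, Ednrb an endothelin receptor and Ephb3 an ephrin receptor.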

How the data were processed

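The authors deposited 1 table of raw read counts per library. Per the submitters' processing notes, bcl2fastq 2.20.0.422, STAR 2.5, featureCounts 1.5.0-p1 and the GRCm38 genome were used. Libraries were single-end and not stranded, and how reads with several positions were counted is not given in the sources used here. Names were matched for 55480 of 55573 genes.

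Genes were kept with edgeR's filterByExpr (minimum count 10, minimum total 15), leaving 18442. Counts were scaled by TMM and tested with edgeR 4.0.16 in R 4.3.3, in 1 quasi-likelihood fit over the 8 groups of 39 libraries. DESeq2 1.42.0 and 9 other alternatives were tried, which include a term for sex (25 female and 14 male libraries by expression) and the animal as a block. The 2 nerves of a mouse pair by label, and the correlations of their deviations from group means, over 5000 genes, were -0.116 to 0.567 and over 0.1 in 14 of 17 pairs.

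At 1 CPM the smallest library held 10.9 counts. Steps were tested on simulated data. The study states 4 samples per group, and all 39 deposited libraries were used. The members and lists were chosen with earlier results of these data known. From each list the text counts all genes and names the 2 lowest p-values per direction in Lepr-ctrl mice at 2 wpc, and also Zeb2, Jun, Pax3, Mbp, Notch1, Egr3, Id1, Id3, Fos, Ngfr and Lepr. Some genes under this rule are not reported here. Other genes named (Gjc3, Lyz2, Nr4a1) were chosen after their values were seen.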

Additional observations from a re-analysis of the deposited data

Results flagged for a closer look

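Of 80 groups of values of the 10 genes, 9 held 1 library far from the others of its group, where chance gives about 1 in 20. Pou3f2 was at 39.1 CPM in healthy Lepr-cKO SLRKO2wpc135c at 2 wpc, where the others were at 29.3 to 32.6, and at 45.6 CPM in injured Lepr-cKO SLRKO2wpc125i at 2 wpc, where the others were at 15.5 to 23.8. Sox2 was at 32.1 CPM in healthy Lepr-ctrl WT-168Snc at 4 wpc, where the others were at 25.9 to 26.6. Nab1 was at 90.9 CPM in injured Lepr-cKO SLRKO2wpc135i at 2 wpc, where the others were at 46.5 to 56.4, and at 87.6 CPM in healthy Lepr-cKO KO-177Snc at 4 wpc, where the others were at 118.4 to 129.0. Nab2 was at 63.5 CPM in healthy Lepr-ctrl SLRKO2wpc147c at 2 wpc, where the others were at 40.3 to 44.0, and at 68.5 CPM in healthy Lepr-ctrl WT-178Snc at 4 wpc, where the others were at 55.2 to 58.8. Yy1 was at 110.1 CPM in that same library, where the others were at 98.2 to 101.6. Id2 was at 19.8 CPM in healthy Lepr-ctrl SLRKO2wpc123c at 2 wpc, where the others were at 8.77 to 11.9.

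The response to injury of Lepr-ctrl mice differed between 4 and 2 wpc, tested as the difference of the log2 fold changes, for Pou3f1 (-1.88), Pou3f2 (-1.28), Sox2 (-1.20), Nab1 (0.94) and Id2 (-0.91). The 2 times are separate sets of mice, and time and set cannot be told apart.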

How the results depend on the processing

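No value of the 10 genes that passed the test changed direction in any alternative. With an absolute log2 fold change above 1 required, members lower at 2 wpc in Lepr-ctrl mice went from 5 to 2, members higher and lower at 4 wpc in Lepr-cKO mice from 5 and 5 to 2 and 1, and members with a time difference in Lepr-ctrl mice from 5 to 3. With DESeq2, members passing between genotypes in injured nerves at 4 wpc went from 0 to 2, Sox10 also passed for time in Lepr-ctrl mice and Pou3f2 no longer passed at 2 wpc in Lepr-ctrl mice. With no filter on low counts 3 calls were lost (Pou3f2 at 2 wpc in Lepr-ctrl mice, Yy1 at 4 wpc in Lepr-cKO mice and Id2 for time), with only the groups compared 2 were lost (Yy1 and Id2, the same comparisons) and 3 gained (Nab1 and Nab2 at 4 wpc in Lepr-ctrl mice and Sox10 for time), and with mitochondrially encoded genes left out of normalization 1 was lost (Pou3f2) and 1 gained (Sox10). Leaving out 1 library at a time gave 3 to 5 members higher in Lepr-cKO mice at 4 wpc, 0 to 6 passing between genotypes in injured nerves at 4 wpc and 1 to 6 for time in Lepr-ctrl mice. Genes passing between genotypes in injured nerves at 4 wpc were 241 in all, 767 with DESeq2, 156 with its size factors, 113 with a term for sex, 85 with no filter and 0 with these groups alone. The animal as a replicate block gave 5 members higher and 4 lower at 2 wpc in Lepr-ctrl mice and 6 with a time difference, and beside Pou3f2, Egr1 and Sox10 named above it changed no other call of the injury comparisons, of the genotype differences in the response or of the time differences. It was not used between Lepr-cKO and Lepr-ctrl nerves, which came from different mice. The lowest count of a member in any library was 43, of Pou3f2. The causes of these changes were not tested.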
